A study of Mus musculus with 12 samples.

Results

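RAW264.7 is a mouse macrophage line, and the cells described here carried a stable shRNA against DCLK1, a doublecortin-like protein kinase. The series holds 12 RNA-seq libraries in 4 groups of 3. The 6 libraries of shDCLK1 cells were taken by their labels: 3 of untreated cells, and 3 of cells given 500 ng/ml of LPS (lipopolysaccharide, a component of the bacterial outer membrane) for 6 h. The other 6 libraries come from a line whose labels give no knockdown, and which the protocol describes as carrying a negative control shRNA, untreated or with the same dose and time of LPS. They are called control cells below and enter mainly where the responses of the lines are compared. The protocol calls the lines monoclonal, so each is taken as 1 clone, and an effect of the shRNA cannot be told apart from a difference between clones. The strain entry reads C57BL/6 for every library, although RAW264.7 is known to derive from a BALB/c mouse. No label says whether the 3 libraries of a group came from separate cultures, so the p-values measure the spread between these libraries, which may be technical.

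Levels are FPKM, fragment counts scaled to the length of the transcript and to the mapped fragments of the library. Of the 18190 genes listed, 10803 reached 1 FPKM in at least 3 of the 6 shDCLK1 libraries and were kept. A change is the difference of mean log2(FPKM + 1), LPS minus untreated, a scale that understates the change of genes with low FPKM. It was tested with limma, and a gene was called where the Benjamini-Hochberg adjusted p was under 0.05, with adjustment over all 10803 genes. Values after ± are standard deviations over the 3 libraries of a group (n = 3).

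Macrophages sense LPS through TLR4, with CD14 and MD-2 as co-receptors. The adaptor MyD88 leads to the IKK kinases and NF-κB and the adaptor TRIF to IRF3 and interferon β, which acts back on the cells through STAT factors. The textbook response is a release of cytokines, chemokines, nitric oxide and prostaglandins, an antiviral state, and inhibitors of the same pathways; dividing macrophages are also known to leave the cell cycle. The title of the series places DCLK1 beside IKKβ and NF-κB, and the 6 libraries address what LPS changes in cells with the shRNA.

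The 6 libraries were alike in size. Their FPKM sums ran from 457695 to 490944, and their relative depth, read from the smallest FPKM steps of 38 genes, from 0.994 to 1.01; read totals were not given. Across the genes kept, Pearson's r of log2(FPKM + 1) was 0.994 to 0.996 within a group and 0.857 to 0.860 between untreated and LPS libraries. Dclk1 (Entrez Gene 13175), the target of the shRNA, was listed at 0.01 FPKM in the first untreated library and at 0 in the other 5. In control cells it was listed at 0.01, 0.01 and 0 FPKM untreated and at 0 in each LPS library. Its transcript was thus nearly absent from both lines, and these values cannot show the knockdown. Of 14 macrophage markers, 13 reached 1 FPKM in at least 3 libraries. The exception was Mrc1, the mannose receptor. No marker of fibroblasts, epithelial cells or lymphocytes reached it in 3 or more libraries; the B cell gene Pax5 was listed at 0.80, 0.58 and 1.3 FPKM with LPS and at most 0.09 untreated. The summed neutrophil and mast cell markers lay at 6.40 to 6.78 FPKM untreated and at 16.1 to 20.4 with LPS, and the summed adipocyte markers at 0.09 to 0.12 and 1.38 to 2.05. Nearly all of the first sum with LPS was Cxcr2, at 13.55 to 16.05 FPKM, and S100a8, at 2.05 to 4.37. Untreated it was Cxcr2, with S100a8 at 0. Elane, Mpo, Cpa3 and Kit stayed at 0.04 FPKM or under. The adipocyte sum was nearly all Fabp4, with Plin1 and Cidec at 0.03 FPKM or under. The summed dendritic cell markers lay at 14.5 to 15.6 untreated and 10.2 to 10.7 with LPS, with Siglech lower, at 13.1 to 13.7 and 3.78 to 4.83 FPKM, and Xcr1 and Ccr7 higher, from at most 0.29 and 0.11 to at least 2.02 and 2.72 FPKM. The part of these markers in the results was not tested. In such bulk libraries fewer cells with a transcript and less of it per cell cannot be told apart.

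LPS changed most of the transcriptome, and the largest rises were steeper than the deepest falls. Of the 10803 genes, 9239 were called (85.5%), 2704 higher with LPS (25.0%) and 6535 lower (60.5%). At least 1 log2 unit separated the groups for 760 of the higher genes (7.04%) and 1707 of the lower ones (15.8%). The 2 groups of 3 did not overlap for 9219 genes (85.3%). The filter alone fixed this separation and its direction for some of them. These were 231 genes under 1 FPKM in all untreated libraries, which had to rise, and 412 under 1 FPKM in all LPS libraries, which had to fall. Rises reached further than falls: 122 genes rose by at least 3 log2 units and 47 fell by as much, and at 5 log2 units the counts were 27 and 1.

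The split between rises and falls depends on how FPKM are scaled. The median change of all genes kept was -0.30 log2 units as deposited, -0.01 after median-of-ratios scaling and -0.04 after quantile scaling, which gave 4489 higher and 4522 lower genes, and 4179 and 4780. At 1 log2 unit or more they gave 1072 higher and 1065 lower genes, and 1026 and 1090, against 760 and 1707 as deposited. The first brings the libraries to a common middle and the second to a common distribution. Medians near 0 and near-even counts are thus largely built into both, and do not show the direction of the response. Genes that take a large share of a library lower the FPKM of all others, but the part of this in the deposited median of -0.30 was not tested. The genes called at least 1 log2 unit higher, a set chosen by its rise, held 4.52 to 4.60% of the FPKM sum untreated. With LPS they held 20.6 to 20.9%. Those called at least 1 log2 unit lower went from 11.9 to 12.1% to 3.64 to 3.69%. Under all 3 scalings 2625 genes were called higher (24.3%) and 4163 lower (38.5%), and small changes are best read against the shifted median.

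**Figure D1:**
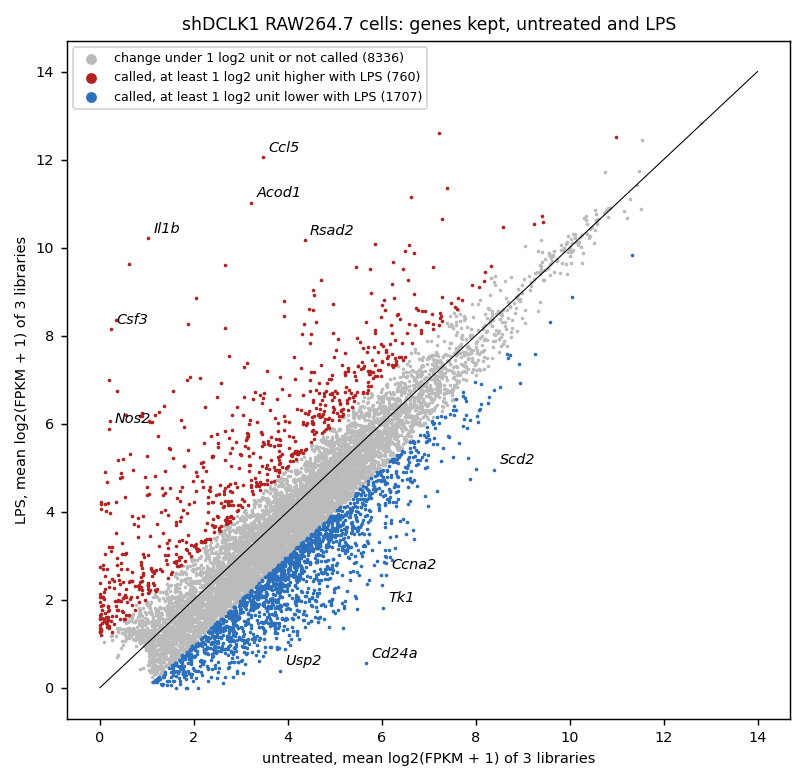
Mean log2(FPKM + 1) of the 3 LPS libraries (vertical) against that of the 3 untreated libraries (horizontal) for each of the 10803 genes kept in shDCLK1 cells, with the line of equality. Red points are the 760 genes called at least 1 log2 unit higher with LPS and blue points the 1707 called at least 1 log2 unit lower; the red points reach farther from the line.

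The steepest rises were those of interleukins and other secreted signals that were nearly silent before LPS. Il1b, interleukin-1β, was listed at 0.83, 0.81 and 1.53 FPKM untreated and 1167, 1203 and 1192 FPKM with LPS, a rise of 9.19 log2 units (SE 0.171, adjusted p = 1.84e-14). Il1a, interleukin-1α, was listed at 0.40, 0.32 and 0.96 FPKM untreated and 809, 764 and 785 FPKM with LPS, a rise of 9.0 log2 units (SE 0.137, adjusted p = 3.35e-15). In both genes every LPS library stood far above every untreated one, and the third untreated library held the most. The third untreated control library was likewise the highest of its group for both, and this trace was not tested. Csf3, which encodes the neutrophil growth factor G-CSF, was listed at 0.08, 0.16 and 0.28 FPKM untreated and 322, 245 and 281 FPKM with LPS and rose by 7.91 log2 units (SE 0.0879, adjusted p = 2.81e-16). Lif, leukemia inhibitory factor, was listed at 0.09, 0.08 and 0.26 FPKM untreated and 139, 116 and 127 FPKM with LPS and rose by 6.81 log2 units (SE 0.0690, adjusted p = 1.5e-16). Both were under 0.5 FPKM in all untreated libraries, again with the highest trace in the third. Il6, a cytokine that induces acute-phase proteins, was listed at 0.25, 0.35 and 0.29 FPKM untreated and 105, 111 and 102 FPKM with LPS and rose by 6.37 log2 units (SE 0.0428, adjusted p = 6.79e-18). Il27, encoding the p28 subunit of interleukin-27, was listed at 2.10, 3.08 and 2.84 FPKM untreated and 251, 365 and 316 FPKM with LPS and rose by 6.40 log2 units (SE 0.117, adjusted p = 1.62e-14). The LPS libraries of Il6 lay close together, while those of Il27 spread from 251 to 365 FPKM without reaching the untreated ones.

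Chemokines and enzymes made up most of the remaining large rises. Ccl5, which attracts T cells, was listed at 9.41, 9.16 and 11.8 FPKM untreated and 4209, 4438 and 4147 FPKM with LPS and rose by 8.59 log2 units (SE 0.259, adjusted p = 2e-12). Ccl22, a ligand of CCR4, was listed at 0.29, 0.06 and 0.47 FPKM untreated and 312, 345 and 322 FPKM with LPS and rose by 8.02 log2 units (SE 0.0967, adjusted p = 5.55e-16). Cxcl2, which recruits neutrophils, was listed at 5.23, 5.76 and 5.09 FPKM untreated and 800.2, 765 and 762 FPKM with LPS and rose by 6.93 log2 units (SE 0.0585, adjusted p = 2.9e-17). None of the 3 chemokines overlapped between states, and Ccl5 was the most abundant of them. Ccl2, which attracts monocytes, was listed at 0.20, 0.07 and 0.21 FPKM untreated and 68.6, 61.01 and 68.4 FPKM with LPS and rose by 5.85 log2 units (SE 0.102, adjusted p = 1.04e-14). Acod1, the mitochondrial enzyme that makes itaconate, was listed at 8.19, 7.50 and 9.46 FPKM untreated and 2073, 2069 and 2086 FPKM with LPS and rose by 7.80 log2 units (SE 0.164, adjusted p = 5.8e-14). Ptgs2, cyclooxygenase-2, was listed at 3.09, 2.98 and 3.42 FPKM untreated and 451, 458 and 467 FPKM with LPS and rose by 6.79 log2 units (SE 0.0476, adjusted p = 7.6e-18). The LPS libraries of Acod1 and Ptgs2 lay close together, far above the untreated ones. Nos2, the inducible nitric oxide synthase, was listed at 0.10, 0.17 and 0.18 FPKM untreated and 47.6, 69.1 and 60.02 FPKM with LPS and rose by 5.69 log2 units (SE 0.0992, adjusted p = 1.04e-14). Rsad2, or viperin, an antiviral radical enzyme, was listed at 18.3, 20.4 and 19.8 FPKM untreated and 1199.7, 1131 and 1119.9 FPKM with LPS and rose by 5.81 log2 units (SE 0.0672, adjusted p = 3.65e-16). Gbp5, a guanylate-binding protein that promotes inflammasome assembly, was listed at 0.50, 0.42 and 0.52 FPKM untreated and 69.05, 82.2 and 66.5 FPKM with LPS and rose by 5.63 log2 units (SE 0.0745, adjusted p = 1.1e-15). These genes complete the 15 largest rises among genes with a mean of at least 5 FPKM over the 6 libraries.

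Of the 15 deepest falls, those described here were mostly genes of the dividing cell. The deepest was that of Cd24a, a small glycosylated surface protein, listed at 48.5, 51.1 and 48.7 FPKM untreated and 0.46, 0.50 and 0.47 FPKM with LPS, a fall of 5.09 log2 units (SE 0.0551, adjusted p = 2.52e-16). Tk1, the S-phase thymidine kinase, was listed at 67.1, 61.3 and 64.4 FPKM untreated and 2.67, 2.61 and 2.29 FPKM with LPS and fell by 4.21 log2 units (SE 0.0719, adjusted p = 8.75e-15). Ccna2, cyclin A2, was listed at 65.6, 66.4 and 68.03 FPKM untreated and 4.74, 4.64 and 5.40 FPKM with LPS and fell by 3.52 log2 units (SE 0.0480, adjusted p = 1.33e-15). All untreated libraries of these genes were above all LPS libraries, and of the 3 Cd24a was left under 1 FPKM. E2f8, a repressor of cell cycle genes, was listed at 27.6, 29.3 and 28.7 FPKM untreated and 1.38, 1.76 and 1.67 FPKM with LPS and fell by 3.51 log2 units (SE 0.0641, adjusted p = 1.56e-14). Birc5, survivin, a subunit of the chromosomal passenger complex, was listed at 62.4, 61.4 and 62.99 FPKM untreated and 4.87, 5.57 and 4.30 FPKM with LPS and fell by 3.42 log2 units (SE 0.0680, adjusted p = 3.41e-14). Ncapd2, a condensin subunit, was listed at 49.2, 50.3 and 52.1 FPKM untreated and 3.90, 4.30 and 4.13 FPKM with LPS and fell by 3.33 log2 units (SE 0.0517, adjusted p = 3.92e-15). The groups were again apart in all 3. Racgap1, which works in the central spindle, the mitotic kinase Nek2, the spindle motor Kif11, the kinase Pbk and Fam64a, a regulator of mitotic exit, fell by 3.40, 3.38, 3.33, 3.33 and 3.82 log2 units.

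The others of the 15 work elsewhere in the cell. Rasgrp3, an activator of Ras proteins, was listed at 61.8, 65.8 and 62.9 FPKM untreated and 4.11, 3.89 and 4.12 FPKM with LPS and fell by 3.68 log2 units (SE 0.0385, adjusted p = 1.89e-16). Scd2, a stearoyl-CoA desaturase, was listed at 329, 337 and 344 FPKM untreated and 30.3, 29.97 and 29.6 FPKM with LPS and fell by 3.44 log2 units (SE 0.0257, adjusted p = 1.25e-17). Scd2 was the most abundant of the 15 and kept about 30 FPKM, while Rasgrp3 was left under 5 FPKM. Usp2, a deubiquitinating enzyme, was listed at 13.2, 13.5 and 13.2 FPKM untreated and 0.46, 0.33 and 0.16 FPKM with LPS and fell by 3.45 log2 units (SE 0.0764, adjusted p = 9.98e-14), and all of its LPS libraries were under 0.5 FPKM.

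**Figure D2:**
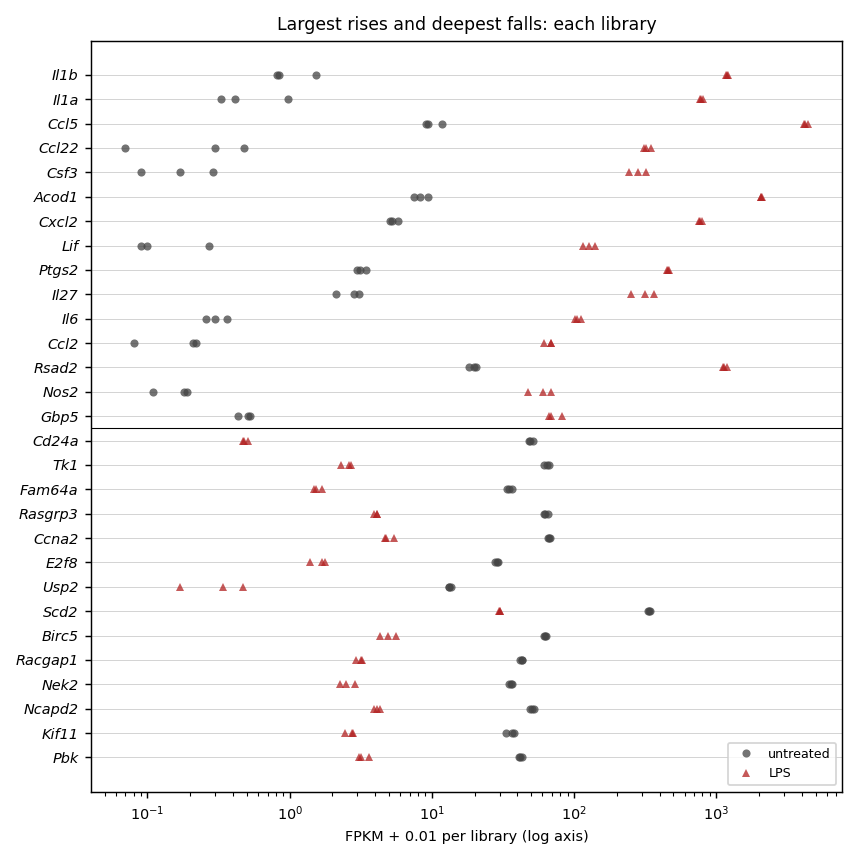
FPKM + 0.01 in each library on a log axis for the 15 genes that rose most (upper block) and 14 of the 15 that fell most (lower block) among genes with a mean of at least 5 FPKM in shDCLK1 cells. Circles are the 3 untreated and triangles the 3 LPS libraries; in none of these genes do the 2 groups overlap.

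The promoters of the genes that changed most were read for short motifs of the factors named above. RefSeq promoter windows of build GRCm38.p6, from 250 bases before to 50 bases after the gene's start, were present once for 6885 of the 10803 genes. The letters searched on both strands were GGNNTTTCC for NF-κB, GAAANNGAA for the interferon-stimulated response element (ISRE), TGANTCA for AP-1, TTTNNCGC for E2F and TTTGAA for the cell cycle homology region (CHR), with N for any base. The 6 stretches below belong to the genes with the largest change whose window holds the motif before the start: 2 NF-κB matches among all rises, 1 ISRE match each among antiviral genes and guanylate-binding proteins, 1 E2F match among replication genes, and a CHR match with CCAAT matches among mitosis genes. Each is 120 bases, 5′ to 3′ on the gene's strand, all upstream of the start. Capitals mark only matches to the motif for which the gene was chosen, on either strand. Matches to the other letters stay in lower case, such as those of NF-κB (ggtgtttcc) and AP-1 (tgagtca) in Rsad2. Acod1 (chr14:103046892-103047011, plus strand) and Cxcl2 (chr5:90903773-90903892, plus strand) show the NF-κB letters, and Rsad2 (chr12:26456482-26456601, minus strand) and Gbp5 (chr3:142496740-142496859, plus strand) the ISRE letters. Mcm5 (chr8:75109326-75109445, plus strand) shows an E2F match read on both strands, and Ncapd2 (chr6:125191620-125191739, minus strand) the CHR and CCAAT letters.
Acod1: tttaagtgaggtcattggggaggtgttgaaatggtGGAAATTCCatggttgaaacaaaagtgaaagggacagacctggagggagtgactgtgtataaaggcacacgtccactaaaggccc
Cxcl2: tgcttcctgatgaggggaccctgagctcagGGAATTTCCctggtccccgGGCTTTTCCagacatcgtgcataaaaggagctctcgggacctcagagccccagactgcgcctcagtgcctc
Rsad2: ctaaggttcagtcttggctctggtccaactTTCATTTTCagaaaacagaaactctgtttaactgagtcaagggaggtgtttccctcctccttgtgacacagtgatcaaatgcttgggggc
Gbp5: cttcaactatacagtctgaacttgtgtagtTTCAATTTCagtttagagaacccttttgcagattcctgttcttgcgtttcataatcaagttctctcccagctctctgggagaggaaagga
Mcm5: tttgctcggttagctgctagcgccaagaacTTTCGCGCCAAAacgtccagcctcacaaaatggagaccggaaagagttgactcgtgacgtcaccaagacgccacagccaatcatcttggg
Ncapd2: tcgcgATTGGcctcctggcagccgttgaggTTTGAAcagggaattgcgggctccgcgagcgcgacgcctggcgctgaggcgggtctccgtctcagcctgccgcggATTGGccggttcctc

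Windows of rising and falling genes held these letters at different shares, given here as counts with no test. The NF-κB letters were in 5 of 10 windows of the 15 largest rises, in 6 of 18 of cytokines, in 9.63% of the 457 windows of genes called at least 1 log2 unit higher, in 4.70% of the 1084 of genes called at least 1 lower, and in 6.35% of all 6885. The ISRE letters were in 19.7% of the higher, 6.27% of the lower and 7.84% of all kept windows. Among antiviral genes they were in 18 of 31, and among guanylate-binding proteins and their relatives in 9 of 10. Both lists were chosen with earlier results of these data known, so their shares are a description only. The AP-1 letters followed the higher genes as well, at 11.8% against 3.87% of the lower and 4.59% of all. They were in 7 of 31 windows of antiviral genes and 3 of 10 of guanylate-binding proteins and their relatives. The E2F letters lay in 13.9% of the lower, 6.78% of the higher and 9.99% of all windows, and in 14 of 35 windows of replication genes. The CHR letters were in 32 of 43 windows of mitosis genes and 4 of 35 of replication genes, in 5 of 10 of guanylate-binding proteins and their relatives and 11 of 31 of antiviral genes, which rose, with 12.2% in all, 18.7% in the lower and 15.3% in the higher windows. CCAAT was in 31 of the same 43 mitosis windows and in 40.7% of all. A match of so few letters is a description of the sequence, not a bound site.

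**Figure D3:**
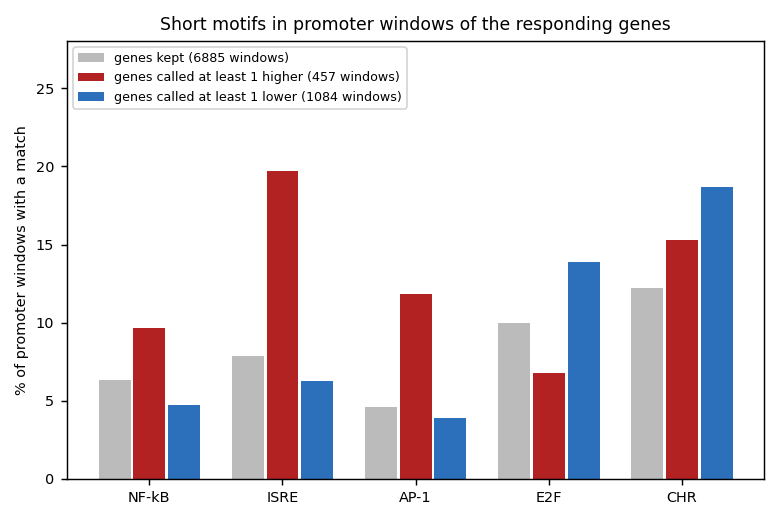
Percent of promoter windows with at least 1 match on either strand to 5 short motifs (horizontal axis), for all 6885 kept genes with a window (grey), the 457 called at least 1 log2 unit higher with LPS (red) and the 1084 called at least 1 lower (blue). NF-κB, ISRE and AP-1 matches were most frequent in the red group, and E2F and CHR matches in the blue group.

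Some genes crossed from near silence to clear expression. Under 0.5 FPKM in each untreated library and at 5 FPKM or more in each LPS library were 32 genes, whose summed FPKM went from 5.98, 6.57 and 7.70 untreated to 1406, 1347 and 1360 with LPS. The 10 highest were Ccl22, Csf3, Lif, Il6, Ccl2, Nos2, Slfn1, Ptges, Lcn2 and the predicted gene BC094916. Slfn1, a Schlafen protein known to restrain T cell growth, was listed at 0.45, 0.39 and 0.40 FPKM untreated and 31.8, 38.99 and 36.5 FPKM with LPS. Ptges, which makes prostaglandin E2 from the product of Ptgs2, was listed at 0.32, 0.40 and 0.20 FPKM untreated and 39.7, 31.2 and 34.9 FPKM with LPS. Lcn2, a siderophore-binding protein, was listed at 0.06, 0 and 0.19 FPKM untreated and 30.1, 25.6 and 31.4 FPKM with LPS. In the opposite direction 10 genes went from 5 FPKM or more to under 0.5 FPKM in each library. They include Usp2, the E2F repressor E2f7 at 5.69, 6.04 and 5.55 FPKM untreated and 0.49, 0.46 and 0.48 FPKM with LPS, and Alox5, the 5-lipoxygenase of leukotriene synthesis, at 5.69, 5.32 and 6 FPKM untreated and 0.32, 0.32 and 0.47 FPKM with LPS. Ppfia4, a liprin, was another of the 10.

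LPS reordered the top of the transcriptome. Ccl3, a chemokine for monocytes and lymphocytes, went from rank 467 to rank 2 by mean FPKM, behind the elongation factor Eef1a1. It was listed at 146, 149.8 and 149 FPKM untreated and 6207, 6387 and 6073 FPKM with LPS. Ccl5 came from rank 6602 to rank 5, Cd14 from 406 to 9, and Ccl4, a close relative of Ccl3, from 807 to 10. The other 6 of the 10 most abundant transcripts with LPS were Eef1a1, the chaperone Hspa8, the ferritin chains Fth1 and Ftl1, the ribosomal protein gene Rplp1 and Actb, which had ranks 1 to 15 untreated.

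Further groups are described by gene lists. These were chosen with earlier results of these data known, so their counts describe the listed members and test nothing. Each count below is of the listed members that passed the filter, to be read against 25.0% of all genes called higher and 60.5% called lower, and 7.04% and 15.8% by at least 1 log2 unit. Members kept only through the LPS libraries had to rise and their number is given; at most 2 in a list passed only through the untreated libraries and had to fall, 1 of the replication and 1 of the mitosis genes among them. Genes named in the lists are their largest changes, their largest change against the list's direction, and their most abundant member.

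The LPS receptor complex changed in mixed directions. Of 23 listed genes 22 were kept; 8 rose and 11 fell, with a median change of -0.08 as deposited, 0.22 with median-of-ratios and 0.28 with quantile scaling; 4 rose by at least 1 as deposited and 7 with median-of-ratios scaling. Cd14 was listed at 170.3, 160.4 and 168 FPKM untreated and 2663, 2527 and 2640.3 FPKM with LPS and rose by 3.97 log2 units (SE 0.0318, adjusted p = 2.41e-17). Tlr4, the receptor itself, was listed at 7.79, 8.55 and 8.04 FPKM untreated and 2.64, 2.15 and 2.45 FPKM with LPS and fell by 1.42 log2 units (SE 0.0607, adjusted p = 7.52e-11). The co-receptor and the receptor thus moved apart, without overlap between states in either. Irak2, a kinase downstream of MyD88, rose by 1.48 and Ticam2, the bridge from TLR4 to TRIF, fell by 1.79 log2 units. Ly96, which encodes MD-2, the ubiquitin ligase Traf6 and the adaptor Tab3 were not called as deposited, but were called higher with median-of-ratios (0.46, 0.37 and 0.33) and quantile scaling (0.57, 0.44 and 0.48), and Ly96 also without the third LPS library, at 0.24. Other sensors of microbes rose more often: 14 of 21 kept of 23 listed, 11 of them by at least 1, 1 kept only through LPS, with 6 falls and a median of 1.23. Zbp1, a sensor of Z-form nucleic acids, went from 18.6 ± 0.825 to 262 ± 12.1 FPKM and rose by 3.74 log2 units (SE 0.0702, adjusted p = 1.94e-14). Clec4e, the Mincle receptor for microbial glycolipids, Ifih1, the RNA sensor MDA5, and Tlr3, for double-stranded RNA, rose by 3.54, 2.61 and 2.42, while Tlr13, for bacterial ribosomal RNA, fell by 1.21.

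The NF-κB and IKK genes rose together with their inhibitors. All 17 listed genes were kept; 12 rose, 11 of them by at least 1, 3 fell, and Relb and Chuk were not called as deposited. Both were called higher with median-of-ratios (0.40 and 0.30) and quantile scaling (0.37 and 0.25), and Relb also without the second LPS library, at 0.11. Ikbke, encoding the IKK-related kinase IKKε, was listed at 4.56, 5.41 and 5.11 FPKM untreated and 129, 116 and 116 FPKM with LPS and rose by 4.34 log2 units (SE 0.0589, adjusted p = 1.3e-15). Nfkbiz, the nuclear inhibitor-like protein IκBζ, went from 4.66 ± 0.592 to 96.8 ± 4.06 FPKM and rose by 4.12 log2 units (SE 0.0607, adjusted p = 2.54e-15). Rel, the NF-κB subunit c-Rel, Nfkbie and Nfkbia, which encodes IκBα, rose by 2.40, 2.23 and 2.13; the kinase Map3k14 was called lower by 0.49 as deposited but not with quantile scaling, at -0.087 (limma adjusted p = 0.116). Ikbkb, encoding IKKβ, was listed at 22.7, 22.1 and 23 FPKM untreated and 19.5, 20.01 and 19.02 FPKM with LPS; it was called lower by 0.20 log2 units as deposited and was 0.11 under median-of-ratios and 0.06 under quantile scaling. Of 29 feedback inhibitors 27 were kept, 3 of them only through LPS; 18 rose, 14 by at least 1, and 7 fell. Dusp5 and Dusp1, phosphatases of MAP kinases, rose by 5.50 and 3.46, Socs3, an inhibitor of JAK signalling, by 4.79, Il1rn, the interleukin-1 receptor antagonist, by 4.23 and Zfp36, which destabilises cytokine mRNAs, by 2.70 log2 units. Its relative Zfp36l2 fell by 1.68.

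Early transcription factors were split: of 32 listed, 29 were kept, 2 only through LPS, 17 rose (9 by at least 1) and 11 fell. Ier3, an early response gene, the nuclear receptors Nr4a1 and Nr4a2, and the AP-1 subunit Junb rose by 3.70, 3.35, 3.02 and 1.37 log2 units. Klf4, a Krüppel-like factor, was listed at 30.8, 28.2 and 28.99 FPKM untreated and 2.38, 2.95 and 2.84 FPKM with LPS and fell by 3.03 log2 units (SE 0.0621, adjusted p = 4.57e-14), without overlap. Among 21 of 22 kept IRF, STAT and JAK genes, 2 only through LPS, 15 rose and 3 fell. Jak2 went from 7.85 ± 0.509 to 53.2 ± 1.44 FPKM and Irf7, which amplifies interferon production, from 136 ± 6.85 to 756 ± 37.6 FPKM, rises of 2.62 and 2.47. Stat3 and Stat2 rose by 1.88 and 1.81 and Stat5b fell by 0.63.

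Secreted proteins rose almost as a block. Of 36 cytokines and growth factors 35 were in the table and 31 were kept, 12 only through LPS; 27 rose, 24 by at least 1, and 3 fell. Tnfsf9, the ligand of 4-1BB, was listed at 67.7, 63.9 and 66.8 FPKM untreated and 15.8, 17.4 and 16.96 FPKM with LPS and was the deepest of the falls, at 1.92 log2 units. Spp1, osteopontin, was the most abundant member, with 598, 611 and 597 FPKM untreated and 1512, 1429 and 1501 FPKM with LPS. Of 22 chemokines 21 were in the table and 16 kept, 6 of them only through LPS; 14 rose, each by at least 1, and 2 fell, with a median change of 3.76. Cxcl14 fell, by 0.59. The receptors were less one-sided: 17 of 30 kept of 34 listed rose, 3 of those kept only through LPS, and 10 fell, 7 by at least 1. Ccrl2, which presents chemerin to other cells, Tnfrsf1b, a TNF receptor, the death receptor Fas and Cd40 rose by 4.89, 4.21, 3.56 and 3.39. Csf1r, the receptor of the growth factor M-CSF on which macrophages depend, was listed at 267, 259 and 270.4 FPKM untreated and 65.4, 63.7 and 65.6 FPKM with LPS and fell by 2.02 log2 units (SE 0.0295, adjusted p = 2.3e-15). Il6ra fell by 2.15, so that the receptor subunit fell while its ligand Il6 rose.

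Enzymes that make small mediators were among the strongest groups. Of 40 listed enzymes and mediators 37 were in the table and 30 kept, 10 only through LPS; 23 rose, 22 by at least 1, and 7 fell. Hdc, which makes histamine, was listed at 1.14, 1 and 1.04 FPKM untreated and 62.8, 70.3 and 63.95 FPKM with LPS and rose by 5.02 log2 units (SE 0.0552, adjusted p = 2.71e-16). Ptgs1, cyclooxygenase-1, was listed at 12.7, 12.2 and 12.5 FPKM untreated and 1.13, 1.43 and 1.06 FPKM with LPS and fell by 2.61 log2 units (SE 0.0665, adjusted p = 3.75e-13). The 2 cyclooxygenases therefore changed in opposite directions, since Ptgs2 rose as given above.

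The antiviral genes rose without exception among those kept. All 45 listed were kept, 2 only through LPS, and all 45 rose, 38 by at least 1, under each of the 3 scalings, with a median change of 1.69. Ifit3, which binds foreign RNA with its relatives, was listed at 13.8, 14.2 and 14.2 FPKM untreated and 424, 451 and 438 FPKM with LPS and rose by 4.86 log2 units (SE 0.0673, adjusted p = 1.48e-15); Ifit3b is nearly identical and reads may be divided between them. Slfn1 and Cmpk2, a mitochondrial nucleotide kinase, rose by 4.70 and 4.57. Ifitm3, which blocks virus entry, was the most abundant, at 714, 667 and 669 FPKM untreated and 1659, 1743 and 1640.2 FPKM with LPS, a rise of 1.3 log2 units. Of 18 guanylate-binding proteins and immunity-related GTPases 17 were kept, 5 only through LPS, and all rose by at least 1, with a median of 2.84. Gbp2 was listed at 0.92, 0.72 and 0.92 FPKM untreated and 64.5, 86.5 and 74.2 FPKM with LPS and rose by 5.35 log2 units (SE 0.0824, adjusted p = 3.74e-15), sharing sequence with Gbp2b, which rose by 5.30. Gbp3 rose by 5.13 and Irgm1, the most abundant, went from 82.4 to 333 FPKM, 2.0 log2 units.

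Antigen presentation by class I rose and class II split. Of 21 class I and peptide-loading genes, all kept, 14 rose, 9 by at least 1 (5 with quantile scaling), and 4 fell. Nlrc5, the transactivator of class I genes, went from 8.20 ± 0.287 to 32.4 ± 2.03 FPKM, Tap1, the peptide transporter, from 46.1 ± 1.07 to 150.2 ± 1.72 FPKM and Psmb10, an immunoproteasome subunit, from 59.3 ± 2.56 to 149 ± 18.5 FPKM, rises of 1.86, 1.68 and 1.31. B2m, the common light chain, went from 688 to 1541 FPKM, 1.16 log2 units, and H2-Q7 fell by 0.87. Of 21 class II and co-stimulatory genes 16 were kept, 1 only through LPS; 9 rose and 7 fell. The largest rises were of co-stimulatory and inhibitory ligands: Cd274, or PD-L1, was listed at 2.82, 2.65 and 2.59 FPKM untreated and 44, 39.4 and 39.6 FPKM with LPS, a rise of 3.51 log2 units (SE 0.0595, adjusted p = 8.17e-15), and Cd40 and Cd80 rose by 3.39 and 2.67. Ctss, the protease that trims the invariant chain, was the most abundant member and rose by 0.71, and Cd276 fell by 2.73. The class II chains H2-Aa and H2-Ab1, chosen here after their values were seen, fell by 1.62 and 1.56.

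Lineage factors and surface receptors shifted toward another mix. Of 33 transcription factors of myeloid cells 28 were kept; 11 rose and 13 fell, 8 of them by at least 1. Id3, an inhibitor of E proteins, was listed at 1.97, 1.94 and 1.93 FPKM untreated and 38.1, 35.1 and 35.7 FPKM with LPS and rose by 3.66 log2 units (SE 0.0450, adjusted p = 6.43e-16). Cebpa, the C/EBPα of early myeloid cells, was listed at 16.8, 15.6 and 14.5 FPKM untreated and 0.84, 1.10 and 0.93 FPKM with LPS and fell by 3.09 log2 units (SE 0.0733, adjusted p = 1.93e-13), while Cebpd, its relative induced in inflammation, was listed at 6.66, 5.23 and 6.05 FPKM untreated and 29.1, 36.9 and 30.7 FPKM with LPS and rose by 2.25 log2 units (SE 0.0883, adjusted p = 3.06e-11). Tfeb, a regulator of lysosome genes, fell by 2.99. Spi1, which encodes PU.1 and was the most abundant factor, went from 205 to 289.7 FPKM. Among surface receptors 50 of 51 were in the table and 41 kept, 2 only through LPS; 28 rose, 20 by at least 1, and 10 fell. Lilr4b and Lilrb4a, inhibitory receptors similar in sequence, rose by 4.36 and 3.43, the adenosine receptor Adora2b by 4.35 and C5ar1, the receptor of C5a, by 3.97.

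The listed cell cycle genes fell as completely as the listed antiviral genes rose. All 54 listed replication and S phase genes were kept and all 54 fell, 52 of them by at least 1, with a median of -2.17, and 52 fell under all 3 scalings. All 57 mitosis and spindle genes fell, 56 by at least 1, with a median of -2.82, and all 57 did so under each scaling. Rrm2, a ribonucleotide reductase subunit, was listed at 68.01, 67.2 and 65.8 FPKM untreated and 6.01, 5.76 and 6.53 FPKM with LPS and fell by 3.26 log2 units (SE 0.0444, adjusted p = 1.31e-15). Pcna, the sliding clamp of DNA polymerase, stayed the most abundant replication gene, listed at 281, 279 and 269.9 FPKM untreated and 87, 87.2 and 86.3 FPKM with LPS, a fall of 1.66 log2 units (SE 0.0298, adjusted p = 1.36e-14). In none of these did the states overlap. Mcm5, a subunit of the replicative helicase whose promoter stretch is printed above, was listed at 94.8, 89.96 and 96.04 FPKM untreated and 16.8, 17.1 and 17.01 FPKM with LPS and fell by 2.40 log2 units (SE 0.0295, adjusted p = 6.43e-16). Ube2c, which loads ubiquitin for the anaphase-promoting complex, went from 144 ± 13.05 to 21.2 ± 0.971 FPKM and fell by 2.70 log2 units (SE 0.0561, adjusted p = 5.3e-14). Of 28 G1 cyclin and CDK inhibitor genes 27 were in the table and 24 kept; 9 rose and 15 fell. Cdkn1a, the CDK inhibitor p21, was listed at 203, 192 and 188 FPKM untreated and 379, 402 and 389.6 FPKM with LPS and rose by 1.0 log2 units (SE 0.0348, adjusted p = 8.5e-12), and the stress genes Gadd45b and Gadd45g rose by 2.90 and 2.21. Cdk2 and the inhibitor Cdkn2c fell by 1.92 and 2.22.

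Survival genes and inflammasome parts rose in part. Of 27 BCL-2 family and survival genes 26 were kept, 1 only through LPS; 13 rose and 11 fell. Bcl2a1b, an anti-apoptotic A1 gene, went from 76.3 ± 1.05 to 462 ± 30.3 FPKM and rose by 2.58 log2 units (SE 0.0462, adjusted p = 1.32e-14); the near-identical Bcl2a1a and Bcl2a1d rose by 5.27 and 2.75, and reads cannot be assigned among them with certainty. Pim1, a survival kinase, and Mlkl, the executor of necroptosis, rose by 2.96 and 2.78, and Bbc3, the pro-apoptotic PUMA, fell by 1.84. Of 15 kept inflammasome genes (17 listed) 10 rose and 4 fell. Nlrp3, the sensor, was listed at 30.9, 30.9 and 33.2 FPKM untreated and 213, 192 and 203 FPKM with LPS and rose by 2.64 log2 units (SE 0.0384, adjusted p = 2.19e-15). Il18, a substrate of caspase-1, and Casp4, the sensor of cytosolic LPS, rose by 2.27 and 1.68, and Nek7, the partner of NLRP3, fell by 1.38.

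Lipid synthesis fell. Of 26 sterol synthesis genes 25 were kept, 22 fell, 11 by at least 1 (6 with either other scaling), 21 fell under all 3 scalings and 2 rose. Fdps, of the isoprenoid branch point, went from 262 ± 11.1 to 71.5 ± 3.22 FPKM and Acat2 from 27.6 ± 0.654 to 5.76 ± 0.330 FPKM, falls of 1.86 and 2.08 log2 units. Of 24 fatty acid and lipid-handling genes 23 were kept, 1 only through LPS; 17 fell and 5 rose. Fads2, a desaturase, was listed at 228, 222 and 230.3 FPKM untreated and 35.3, 38.6 and 34.7 FPKM with LPS and fell by 2.61 log2 units (SE 0.0407, adjusted p = 4.03e-15), and Hilpda, an inhibitor of lipolysis, went from 7.86 ± 0.496 to 51.8 ± 6.13 FPKM and rose by 2.57 log2 units (SE 0.0687, adjusted p = 6.04e-13). Of 16 LXR targets 15 were in the table and 13 kept; 4 rose and 8 fell. Abca1, a cholesterol exporter, rose by 3.24 while Abcg1, another, fell by 2.09.

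Core metabolism and translation moved less, and here the scaling sets the direction of many members. Of 28 glycolysis and glucose uptake genes 7 rose and 17 fell, 5 and 11 under all 3 scalings, and the list median of -0.18 was 0.15 with median-of-ratios and -0.38 with quantile scaling. The glucose carrier Slc2a1 and Pfkfb3, which drives phosphofructokinase, rose by 1.21 and 1.33, and Hk3, a hexokinase, rose by 1.43 log2 units to 38.7 FPKM. Of 25 TCA cycle genes 22 fell and 1 rose; Idh1 and Idh2, the isocitrate dehydrogenases, fell by 1.48 and 1.63 log2 units, the first to 9.44 and the second to 35.2 FPKM. Of 43 respiratory chain genes 35 fell and 5 rose, 14 and 5 under all 3 scalings, none by as much as 1 log2 unit as deposited and 1 with quantile scaling. Of 45 mitochondrial ribosome genes 29 fell and 8 rose, 14 and 8 under all scalings. The medians of the last 2 lists, -0.36 and -0.27, lie near the all-gene median of -0.30, and were -0.03 and 0.05 with median-of-ratios scaling.

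The protein synthesis lists were similar. Of 72 cytosolic ribosomal protein genes 25 were called higher and 12 lower, 6 of them higher under all 3 scalings, and the median was 0.05 as deposited, 0.38 with median-of-ratios and -0.17 with quantile scaling. Of 37 ribosome biogenesis genes 36 were in the table and kept, 25 fell and 3 rose, 11 and 2 under all scalings. Of 20 aminoacyl-tRNA synthetases 14 fell and 5 rose, 10 and 5 under all scalings. Proteasome genes stood apart from these: 30 of 35 rose, 26 under all 3 scalings, with a median of 0.41. Psme2, a subunit of the PA28 activator, went from 153 ± 4.27 to 347 ± 4.99 FPKM and Psma6, of the core, from 134 ± 5.29 to 358 ± 1.77 FPKM, rises of 1.17 and 1.41. Of 27 genes of the integrated stress and unfolded protein responses 20 fell, 8 by at least 1 (5 with median-of-ratios scaling), and 6 rose; 17 and 6 did so under all 3 scalings. Trib3, a pseudokinase induced by ATF4, was listed at 60.1, 57.8 and 58.3 FPKM untreated and 5.78, 6.37 and 6.83 FPKM with LPS and fell by 3.03 log2 units (SE 0.0564, adjusted p = 1.84e-14), and Chac1, which degrades glutathione, at 28.4, 26.8 and 25.6 FPKM untreated and 4.65, 5.40 and 5.66 FPKM with LPS, a fall of 2.17 log2 units (SE 0.0578, adjusted p = 5.99e-13). Hspa5, the chaperone BiP, was the most abundant and went from 671 to 1153 FPKM, 0.78 log2 units.

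**Figure D4:**
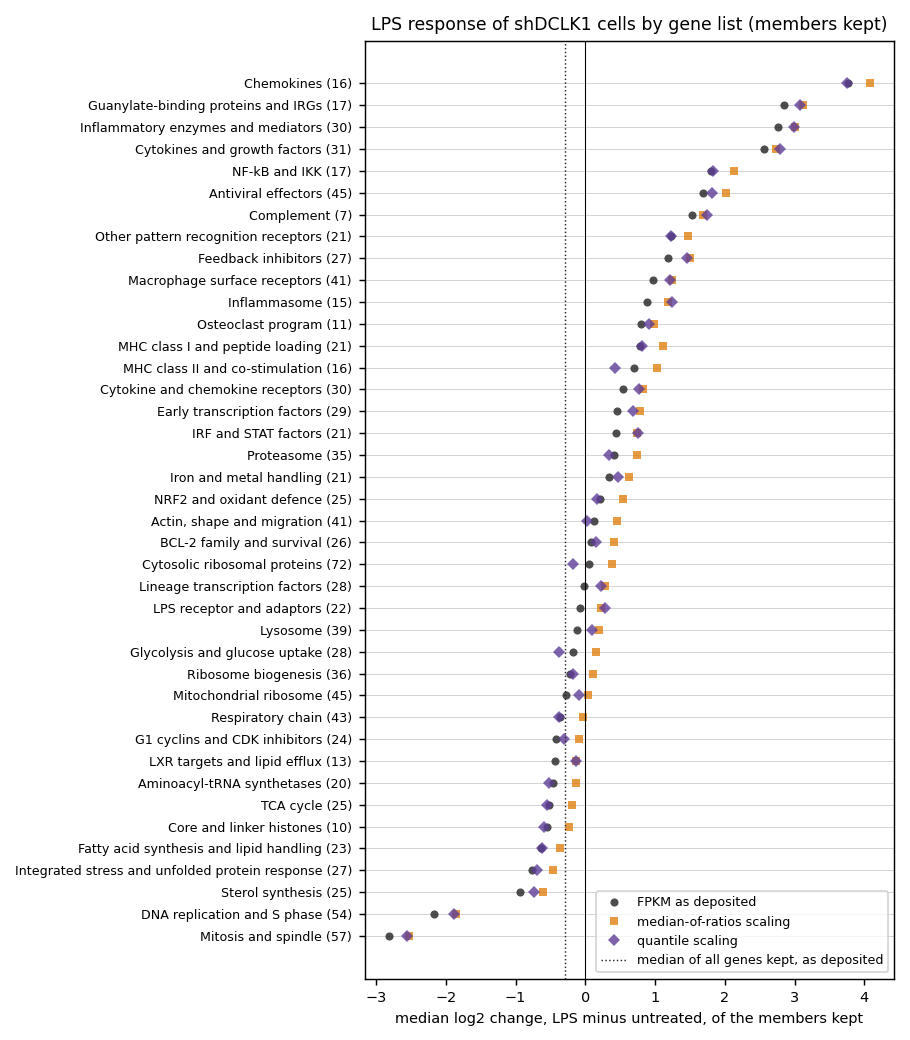
Median log2 change with LPS of the kept members of each of the 40 gene lists (vertical axis, number kept in brackets) in shDCLK1 cells, with FPKM as deposited (circles) and after median-of-ratios (squares) or quantile (diamonds) scaling. Chemokines were highest at 3.76 and mitosis genes lowest at -2.82, and lists near the dotted line, the median of all genes, can change sign with the scaling.

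Oxidant defence, lysosome and metal genes each held a few strong members. Of 26 NRF2 and oxidant genes 25 were kept; 14 rose and 10 fell. Slc7a11, the cystine importer, was listed at 4.48, 4.72 and 4.88 FPKM untreated and 52.9, 39.7 and 47.9 FPKM with LPS and rose by 3.06 log2 units (SE 0.0757, adjusted p = 2.86e-13), and Sod2, the mitochondrial superoxide dismutase, at 28.8, 28.5 and 27.5 FPKM untreated and 134, 125 and 126 FPKM with LPS, a rise of 2.14 log2 units (SE 0.0319, adjusted p = 2.7e-15). Of 40 lysosome genes 39 were kept, 15 rose and 20 fell. Gpnmb, a transmembrane glycoprotein, was listed at 10.2, 9.88 and 10.04 FPKM untreated and 114, 76.96 and 97.7 FPKM with LPS, a rise of 3.12 log2 units, and the cathepsin genes Ctsl and Ctsb went from 77.01 to 239 FPKM and 392 to 608 FPKM, 1.62 and 0.63. Of 22 iron and metal genes 21 were kept, 1 only through LPS; 13 rose and 6 fell. The metallothionein Mt2 and the ferroxidase Cp rose by 4.12 and 2.28, and Steap3, an endosomal iron reductase, fell by 2.34.

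RAW264.7 cells can form osteoclasts, and the genes of that program were listed too. Of 15 listed 14 were in the table and 11 kept, 2 only through LPS; 8 rose and 3 fell. Mmp9, a gelatinase, was listed at 0.20, 0.27 and 0.32 FPKM untreated and 20.96, 14.8 and 17.8 FPKM with LPS and rose by 3.89 log2 units (SE 0.107, adjusted p = 8.29e-13). Car2, the carbonic anhydrase that supplies acid, was listed at 41.8, 40.6 and 41.5 FPKM untreated and 146, 141 and 143 FPKM with LPS and rose by 1.77 log2 units (SE 0.0289, adjusted p = 6.25e-15), and Acp5, the tartrate-resistant phosphatase, rose by 2.51. Clcn7 and Tcirg1, of the acid-secreting membrane, changed by -0.78 and 1.0. Of 42 actin and migration genes 41 were kept, 2 only through LPS, 22 rose and 16 fell; Marcksl1, an actin-binding substrate of protein kinase C, went from 57.3 ± 3.69 to 1077 ± 37.1 FPKM, a rise of 4.21. Of 14 complement genes 7 were kept, 1 only through LPS; 6 rose, among them Cfb, factor B, listed at 1.16, 1.41 and 1.49 FPKM untreated and 51.9, 52.5 and 50.5 FPKM with LPS, a rise of 4.49 log2 units (SE 0.0508, adjusted p = 3.29e-16), and Cfp, properdin, at 85.1, 80.2 and 87.7 FPKM untreated and 125, 121 and 119 FPKM with LPS, a change of 0.53. Of 19 histone genes 10 were kept, 3 rose and 7 fell. H2afz and H2afx, variants of H2A, changed by -2.02 and -1.95, and H1f0, a linker histone of resting cells, by -3.03.

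The same genes answered LPS in the control cells, mostly with larger changes. Of the 760 genes called at least 1 log2 unit higher in shDCLK1 cells 745 were also called higher in control cells, and of the 1707 called at least 1 lower 1686 were also called lower. The share of all genes kept that was called each way in control cells was not counted, so these counts have no background beside them. The difference between the 2 responses was tested as an interaction and called for 5416 of 10803 genes (50.1%), 3572 with the shDCLK1 response higher (33.1%) and 1844 with it lower (17.1%), a split of 2521 and 2591 after median-of-ratios and 2733 and 2386 after quantile scaling. Those 2 scalings favour such a near-even split by construction. Among the 760 rises, 394 were smaller and 155 larger in shDCLK1 cells, with median changes of 1.64 against 1.95 in control cells; among the 1707 falls, 995 were less deep and 187 deeper, with medians of -1.41 against -1.69. Both directions held under median-of-ratios (434 and 134, 874 and 232) and quantile scaling (406 and 139, 819 and 261).

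The cell cycle and antiviral groups, which moved far in shDCLK1 cells, moved farther in control cells. Of the 57 mitosis genes 55 fell less deeply than in control cells, with list medians of -2.82 and -3.76, and of the 54 replication genes 53, with medians of -2.17 and -2.91. Before LPS the mitosis genes summed to 2370 to 2394 FPKM in shDCLK1 and 2686 to 2740 in control cells. With LPS they summed to 358 to 390 and 233.8 to 234.3. The replication genes summed to 2261 to 2288 and 2594 to 2635 before LPS, and 487 to 512 and 341 to 349 with it. With LPS 55 mitosis and 51 replication genes were above all control libraries, against 39.5% of all genes kept. Of the 45 antiviral genes 44 rose less, with medians of 1.69 and 3.56, and of the 17 guanylate-binding and related genes 15, with 2.84 and 3.82. Before LPS, 44 of the 45 antiviral genes were higher in all 3 shDCLK1 libraries than in all 3 control libraries, and 16 of the 17 guanylate-binding genes, against 25.1% of all genes kept. Summed FPKM of the antiviral genes were 3092 to 3129 in untreated shDCLK1 and 979.6 to 995.1 in untreated control cells, and 13371 to 13938 and 13884 to 14035 with LPS. The sums were thus apart before LPS and close with it, but with LPS 23 of the 45 antiviral genes were below all control libraries and 12 above them, against 18.2% and 39.5% of all genes kept. Early transcription factors had medians of 0.46 and 1.05, with 17 of 29 responding lower in shDCLK1 cells and 7 higher, and IRF and STAT genes 0.43 and 1.03, with 11 of 21 lower and 3 higher. Chemokines had list medians of 3.76 and 3.65 but a median difference per gene of -0.60, with 9 of 16 lower and 5 higher, and their summed FPKM with LPS were 15185 to 16014 in shDCLK1 and 22567 to 24663 in control cells. Cytokines had medians of 2.56 and 2.77, NF-κB genes 1.81 and 2.17, and inflammatory enzymes 2.76 and 2.54. The osteoclast genes had medians of 0.79 in shDCLK1 and -0.18 in control cells. Of these 11 genes 7 responded higher in shDCLK1 cells and 1 lower, against 33.1% and 17.1% of all genes kept.

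Ifit3 and Oasl2, an OAS-like antiviral protein, show the higher start. Ifit3 went from 1.73 ± 0.356 to 443 ± 1.98 FPKM in control cells against 14.1 ± 0.242 to 438 ± 13.3 FPKM in shDCLK1 cells, a difference in response of -2.49 log2 units (SE 0.0952, adjusted p = 5.62e-10). Oasl2 went from 7.20 ± 0.255 to 222 ± 6.18 FPKM in control and 62.7 ± 1.67 to 225 ± 2.52 FPKM in shDCLK1 cells, a difference of -2.94 log2 units (SE 0.0455, adjusted p = 1.68e-13). Zbp1 and Lilrb4a had the same form, with LPS levels of 262 and 976 FPKM in shDCLK1 and 266 and 918 in control cells and differences of -2.58 and -2.55.

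Other genes reached different levels with LPS. Plau, urokinase, fell from 183 ± 1.10 to 79.2 ± 7.72 FPKM in shDCLK1 and from 189 ± 3.62 to 5.03 ± 0.293 FPKM in control cells, a difference of 3.78 log2 units (SE 0.0791, adjusted p = 2.67e-12). Car2 rose in shDCLK1 cells, as above, and fell from 135 ± 2.45 to 32.8 ± 0.919 FPKM in control cells, a difference of 3.77 log2 units (SE 0.0408, adjusted p = 5.16e-15). Ccl2 rose from 0.227 ± 0.103 to 7.52 ± 1.35 FPKM in control cells, against the 65.98 FPKM it reached in shDCLK1 cells, a difference of 3.06 log2 units (SE 0.144, adjusted p = 3.69e-09). Scin, an actin-severing protein, and Mmp9 likewise ended higher in shDCLK1 cells, with differences of 2.50 and 2.40. Id3 reached like levels in both, 36.3 FPKM in shDCLK1 cells after 1.95 untreated, and 27.8 to 39.9 FPKM in control cells, a difference of 3.15. Cp and H2-Ea-ps, a class II pseudogene, ended lower in shDCLK1 cells: Cp went from 2.75 ± 0.234 to 17.3 ± 2.53 FPKM against 1.55 ± 0.202 to 70.6 ± 0.832 FPKM in control cells, a difference of -2.54 log2 units (SE 0.124, adjusted p = 5.19e-09), and H2-Ea-ps from 20.8 ± 1.06 to 2.93 ± 0.136 FPKM against 9.27 ± 1.16 to 13.9 ± 0.595 FPKM, a difference of -3.01 log2 units (SE 0.0985, adjusted p = 1.28e-10). The class II chains moved with it, H2-Aa by -1.62 in shDCLK1 and 0.71 in control cells, a difference of -2.33, and H2-Ab1 by -1.56 and 0.69, a difference of -2.25. Called in opposite directions in the 2 lines were 3 of the 760 rises, Car2, Cytip and Id1, the last 2 named after their values were seen, and 11 of the 1707 falls.

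**Figure D5:**
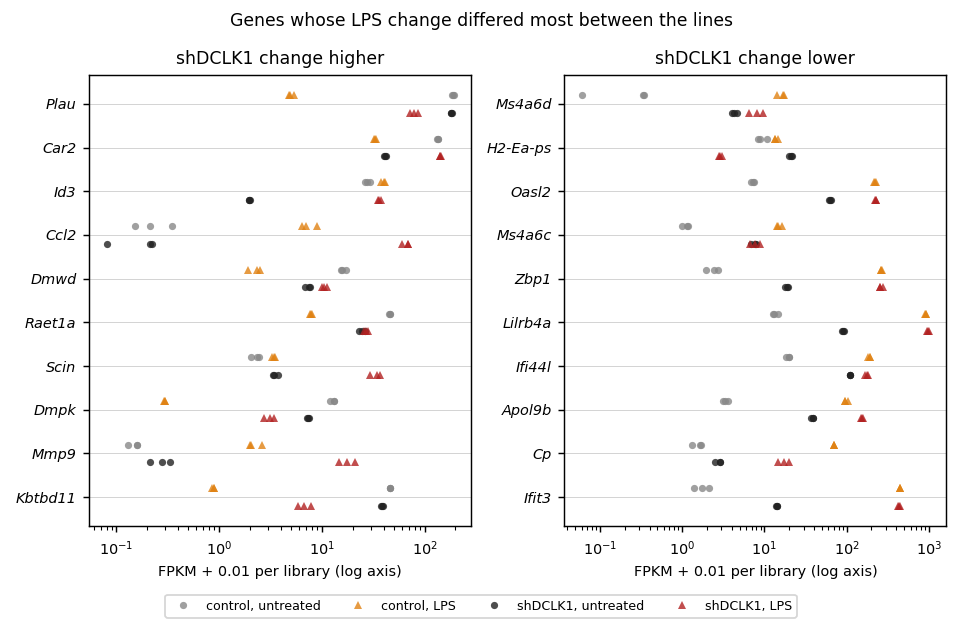
FPKM + 0.01 in each library on a log axis for the 10 genes whose LPS change was most above (left) and most below (right) that of control cells. Circles are untreated and triangles LPS libraries, grey and orange of control cells, black and red of shDCLK1 cells; on the right Oasl2, Zbp1, Lilrb4a and Ifit3 meet with LPS after different starts.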

How the data were processed

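RNA was sequenced from 12 RAW264.7 libraries, and the authors deposited 1 table of FPKM values per gene and library. The labels' protocols describe poly(A) selection and paired-end sequencing. The submitters' processing notes list StringTie 1.3.0, HISAT2 2.0, Bowtie 0.12.2, mm8 and mm9 with no role; read totals are not given in the sources used here. FPKM are relative to each library's own total, so a group of genes that takes more of a library lowers the rest. All 12 value columns were matched to samples by name, and 1 unnamed column with 18 entries was not used. Gene symbols that a spreadsheet had turned into dates, 27 in all, were restored through the Entrez identifiers, of which 18142 of 18190 were in the RefSeq gene table.

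A gene was kept when 3 or more of the 6 shDCLK1 libraries listed it at 1 FPKM or above, and log2(FPKM + 1) of all 12 libraries was fitted with limma 3.58.1 (R 4.3.3), with 4 group means and trended empirical Bayes variances. The difference between lines was the interaction term. The script was tested on simulated data. Scaling by median of ratios, quantile scaling, other pseudocounts and filters, leaving out each library and a replicate block were alternatives. Tables and figures used Python 3.11.15 and matplotlib 3.10.9.

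The members and the 40 gene lists were chosen with earlier results of these data known. Genes named are the 15 largest changes each way with a mean of at least 5 FPKM over the 6 libraries, without predicted models; in each list the 4 largest called changes, the largest against the list and the most abundant member; the 10 largest differences each way between lines; the 10 most abundant genes with LPS; genes crossing from under 0.5 to at least 5 FPKM or the reverse; list members not called, where 5 or fewer; and markers. A few genes that this rule names are not reported here. Overlapping and near-identical genes may share reads.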

Additional observations from a re-analysis of the deposited data

Results flagged for a closer look

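A difference between the LPS responses of shDCLK1 and control cells, tested by an interaction term in limma, was called for 5416 of 10803 genes. The 10 genes with the most positive difference, in log2 units, were Plau (3.78), Car2 (3.77), Id3 (3.15), Ccl2 (3.06), Dmwd (2.86), Raet1a (2.54), Scin (2.50), Dmpk (2.40), Mmp9 (2.40) and Kbtbd11 (2.30). The 10 with the most negative difference were Ms4a6d (-3.05), H2-Ea-ps (-3.01), Oasl2 (-2.94), Ms4a6c (-2.91), Zbp1 (-2.58), Lilrb4a (-2.55), Ifi44l (-2.55), Apol9b (-2.54), Cp (-2.54) and Ifit3 (-2.49). All 20 were taken from the called genes, so their limma adjusted p was under 0.05 by that choice. None changed direction or call under the alternatives tried. Ms4a6d and Ms4a6c, membrane proteins of the MS4A family, went from 0.233 to 16.1 FPKM and 1.08 to 15.02 FPKM in control cells and from 4.34 to 8.07 FPKM and 7.44 to 7.68 FPKM in shDCLK1 cells. Kbtbd11 went from 46.04 to 0.870 FPKM in control cells and from 38.3 to 6.76 FPKM in shDCLK1 cells, and Dmwd and Dmpk, which neighbour each other in the genome, from 15.96 to 2.25 FPKM and 12.8 to 0.287 FPKM in control cells and from 7.32 to 10.6 FPKM and 7.30 to 3.09 FPKM in shDCLK1 cells. Groups of 3 are too small for the test of single outlying libraries, so none was flagged on that ground.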

How the results depend on the processing

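The number of genes called in shDCLK1 cells was 9239, between 9054 and 9086 when any 1 of the 6 libraries was left out, and between 7618 and 10745 under the other alternatives, which include filters that keep fewer or more genes. The scaling moved the directions: 4489 genes were higher with median-of-ratios and 4179 with quantile scaling against 2704, and 1065 and 1090 were at least 1 log2 unit lower against 1707. Near-even directions are largely built into both scalings. Leaving out 1 library gave 2618 to 2670 higher and 6416 to 6444 lower genes, 759 to 767 and 1699 to 1727 of them by at least 1 log2 unit. The difference between lines was called for 5416 genes, for 5036 to 5327 with 1 of the 12 libraries left out (3314 to 3528 higher and 1712 to 1835 lower), and for 4725 to 5502 under the other alternatives. With the replicate number as a block 9202 genes were called in the response and 5252 in the difference. Same-numbered untreated and LPS libraries of shDCLK1 cells deviated from their group means with correlations of -0.00325, -0.0215 and 0.0858. Pairs with different numbers had correlations of -0.0857 to 0.0864. No pairing was used in the main fit, as the replicate numbers are not said to mark a shared culture or day. Such correlations cannot exclude a shared day or culture, which the labels do not give. Fitting the 6 libraries alone gave 9129 genes, and with the block 9060. Of 1520 counts over gene lists and alternatives, 36 moved by over 1.5 times. The sign of 1 named called gene turned under median-of-ratios, Ikbkb at 0.11, and of 3 under quantile scaling, Ikbkb at 0.0645, Fth1 at -0.14 and Rplp1 at -0.56. Genes not called as deposited turned too: Chuk to 0.30 and Ftl1 to 0.30 with median-of-ratios and Chuk to 0.25 with quantile scaling; Eef1a1 to -0.0495, Ms4a6c to -0.0314, Tab3 to -0.0157 and Traf6 to -0.0025 with columns rescaled to an equal sum; and, with 1 library left out, Ftl1 ranged from -0.0532 to 0.0053 and Ms4a6c from -0.0471 to 0.115. The causes of these turns were not tested beyond the scaling itself. Depth limits genes near 1 FPKM, for which the log2(FPKM + 1) scale understates changes, and read totals are unknown, so no counting interval is given.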
